A study of Schmidtea polychroa with 24 samples.

Results

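In the freshwater planarian Schmidtea polychroa, the 200 genes with the steadiest RNA levels in whole cocoons were followed through the first week after deposition. They were chosen from 22365 assembler genes, that is, groups of isoforms formed by the transcript assembler. The value of a gene was the sum of its isoforms in the authors' normalised table. The 60 genes with the highest mean value were set aside, and a gene was kept if its value was at least 10 in all 24 libraries and if its highest time mean was at most 2 times its lowest. Outside those 60, a value of at least 10 in all libraries was met by 2607 genes, called expressed genes here, and 434 of these also met the limit on time means. The 200 with the lowest coefficient of variation over the 24 libraries, the standard deviation as a share of the mean, form the set. The values that chose the genes are therefore their levels at every time, and those levels are given here as a description. Counts of steady genes called between times are printed only to show how the libraries' scaling acts on the set: the rule chose the genes for small differences between these same times, so the counts support nothing about the genes.

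Cocoons of a sexual laboratory population were kept at 20 °C and taken 4 h after deposition and then at 24, 32 and 48 h, at 72, 96 and 120 h, and last at 168 h. Each time had 3 libraries of polyA RNA, described as biological replicates, and each library pooled 4 whole cocoons ground in Trizol. No treatment or genotype separated the groups, and time was the one factor. The libraries held between 1599902 and 9567933 estimated counts. The library 120h replicate 1 stood apart from the other libraries of its time in several measures below, and its own values or the values without it are given there.

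Planarian embryos develop inside a capsule filled with maternal yolk cells, so RNA of a whole cocoon mixes an embryo that grows with nutritive cells that are consumed. RNA placed in the egg and yolk before deposition is lost over time, while transcription in the embryo begins and increases. A gene whose RNA stays at one level relative to the rest of the transcriptome may do so with slow turnover or with loss and new synthesis in balance, and such genes are commonly used as references to which other genes are scaled. In bulk RNA from whole cocoons, fewer cells of a type and less RNA per cell cannot be told apart. The files pair no ID with a gene name, so the genes are described by their levels, isoforms and structure, and only a few are given by ID.

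Levels were compared per length. In the 1157 transcripts with at least 50 counts in every library, the ratio of count to normalised value differed between libraries by at most 1.48% of its own median once each library's median was removed. Between transcripts the same ratio differed up to 22.3 times, as it would for values divided by transcript length. The normalised value therefore ranks genes per length, and it is printed here as the authors' value, with no further unit.

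The median steady gene lay low among the expressed genes but high within the whole assembly. The steady genes' mean value ran from 15.2 to 527.3 with a median of 41.3. The other 2407 expressed genes had a median of 69.4 and a lower quartile of 42.1. The 234 genes that met every limit but were not chosen had a median of 41.05, so this level was not particular to the chosen genes. All 22365 assembler genes had a median of 2.34 and an upper quartile of 13.1, below the lowest steady gene. The rule's limit on the lowest value favours such a difference. Of the steady genes, 21 had a mean value above 100, and 47 lay under 30. The median steady gene had 261.5 counts in its median library, against 241.0 for the other expressed genes and 194.0 for the 234. The lowest count of a steady gene in any library was at least 50 for 135 of the 200.

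The steadiest gene, TRINITY_DN235313_c9_g1, had values of 66.3, 63.3 and 67.0 at 4 h, 63.7, 72.1 and 74.1 at 24 h, 62.2, 40.3 and 51.0 at 32 h, and 52.8, 73.6 and 68.6 at 48 h. It had 59.4, 62.8 and 57.7 at 72 h, 48.9, 65.6 and 43.9 at 96 h, 67.9, 57.0 and 69.0 at 120 h, and 65.2, 62.5 and 64.4 at 168 h. Its coefficient of variation was 14.4%, and its lowest libraries were 32h replicate 2 and 96h replicate 3. Of the libraries of 168 h, replicate 2 lay just under the span of those of 4 h and the others inside it, and the time means ran from 51.2 at 32 h to 70.0 at 24 h.

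The next in order, TRINITY_DN239854_c0_g4, had values of 69.6, 70.0 and 78.1 at 4 h, 67.4, 80.6 and 65.7 at 24 h, 67.8, 68.6 and 54.9 at 32 h, and 66.3, 86.1 and 65.9 at 48 h. It had 52.5, 59.5 and 67.0 at 72 h, 49.2, 80.8 and 50.7 at 96 h, 54.8, 59.5 and 63.5 at 120 h, and 80.3, 58.1 and 59.1 at 168 h. Its time means differed by a ratio of 1.23, the smallest in the set, and its coefficient of variation was 15.5%. The libraries of 96 h ranged more widely than the 8 time means did.

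The most abundant steady genes, TRINITY_DN242589_c0_g1 and TRINITY_DN242589_c0_g2, were 2 genes of one assembler component, the only component that held more than 1 member. Their mean values were 527.3 and 447.4. The ratio of the first to the second ran from 0.992 to 1.36 over the 24 libraries, with a median of 1.2. Both had whole-number counts in all libraries, as counts have where no read is divided between genes. Both were lowest at 168 h, with 390.5 ± 39.5 and 358.8 ± 45.4 (SD, n = 3), and the first was highest at 48 h with 625.7 ± 169 and the second at 32 h with 524.9 ± 132 (SD, n = 3). The libraries of 168 h did not overlap those of the highest time in either gene, but they did overlap those of 96 h in both. The highest and lowest times were picked from these same values, which favours such a separation, so it is a description only. The highest value of both was in 32h replicate 3, with 826.3 and 676.3.

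At the edge of the set the genes were alike on either side. The last gene inside had a coefficient of variation of 25.34%, a mean value of 33.9 and a time ratio of 1.84. The first gene outside had 25.36%, 45.4 and 1.51. No gap separated the set from the genes next to it.

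Over the set, the coefficient of variation ran from 14.4% to 25.3% with a median of 22.8%, and the time means differed by a median ratio of 1.62. The highest and the lowest library of a gene differed by a median ratio of 2.42, and this ratio was under 2 for 19 genes and 3 or more for 18. The median coefficient of variation was 47.3% in the other expressed genes, which the rule makes higher. Counting error alone would give the steady genes a median of 6.99%. The spread within times had a median of 19.1% and that of the time means 16.1%, and in 139 of the 200 genes the spread within times was the larger. A time mean averages 3 libraries, and the rule limits the ratio of time means to 2. These spreads are therefore unlike measures, and the count does not weigh time against variation between libraries. Within a time the median spread was lowest at 168 h, at 9.79%, and highest at 96 h, at 22.5%.

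**Figure D1:**
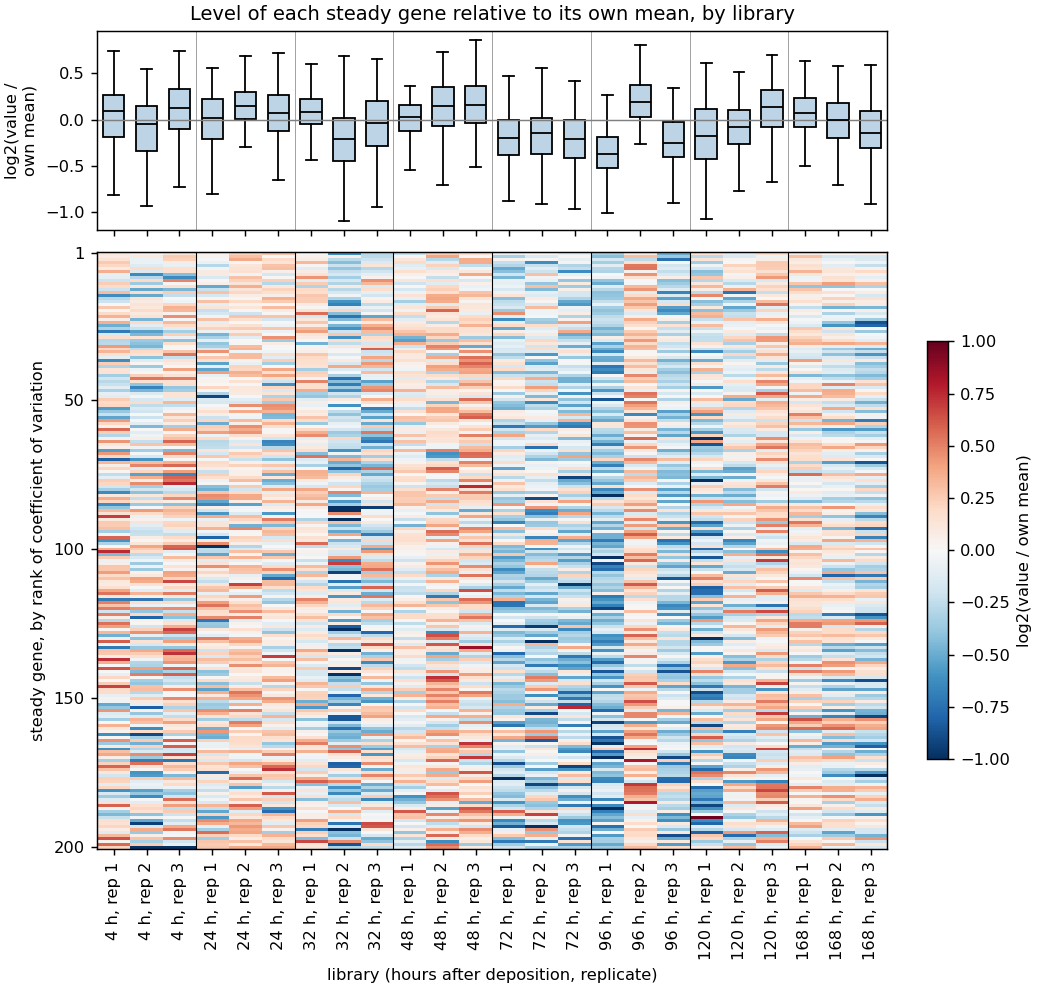
Each row of the lower panel is one of the 200 steady genes, ordered by coefficient of variation, and each column is a library in order of time; colour gives the log2 ratio of the value to the gene's own mean. The boxes above give the quartiles and median of the same ratios per library, with whiskers to the farthest gene within 1.5 times the box height; whole libraries lie above or below 0, such as 96h replicate 1 and 96h replicate 2.

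Part of this spread was shared by the whole set, library by library. The median steady gene stood at 0.773 times its own mean in 96h replicate 1, at 1.14 times in 96h replicate 2 and at 0.838 times in 96h replicate 3. The median of the other expressed genes stood at 0.653, 1.0 and 0.711 in these libraries, so the shifts at 96 h were not particular to the set. In 96h replicate 1, 184 of the 200 genes were below their own mean, and in 96h replicate 2 only 40 were. The 3 libraries of 72 h were close to each other, at 0.871, 0.901 and 0.868. Those of 48 h were at 1.02, 1.11 and 1.11. When each library was divided by the median of the set, the median coefficient of variation was 20.1%, and it was lower than before in 175 of the 200 genes. That division uses the genes it describes, so it gives the size of the shared part and nothing more.

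The times at which the steady genes were highest and lowest were uneven. The highest time mean was at 4 h for 51 genes, at 24 h for 36, at 32 h for 7 and at 48 h for 41. It was at 72 h for 3, at 96 h for 9, at 120 h for 20 and at 168 h for 33. Without 120h replicate 1, 120 h was the highest time of 36 genes. The lowest mean was at 72 h for 67 genes, at 96 h for 34, at 168 h for 29 and at 48 h for 0. After division by the median of the set these counts changed: 72 h was then the highest time of 29 genes and the lowest of 21, and 48 h the highest of 9. The other expressed genes, before division, were highest at 4 h in 33.9%, at 48 h in 7.89% and at 72 h in 1.99%. They were lowest at 168 h in 34.0%, at 72 h in 20.6%, at 96 h in 13.5% and at 48 h in 1.99%. At 72 h the median steady gene stood at 0.880 ± 0.0182 times its own mean, and the median of the other expressed genes at 0.735 ± 0.0256 (SD, n = 3 each).

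The share of all counts held by the set was lowest at the time when the most abundant genes took most. On the first day the 200 steady genes held 2.50% ± 0.0351 of the counts (4 h) and 2.46% ± 0.0987 (24 h), with SD over 3 libraries as the error here and below. At 32 h they held 1.87% ± 0.296, and at 48 h 1.99% ± 0.134. The minimum was 1.49% ± 0.219 at 72 h. It was followed by 1.87% ± 0.185 at 96 h, 1.99% ± 0.469 at 120 h and, at the end, 2.51% ± 0.15 at 168 h. The shares of the libraries at 168 h, 2.39%, 2.68% and 2.47%, overlapped those at 4 h, 2.50%, 2.54% and 2.47%. The shares at 72 h, 1.54%, 1.68% and 1.25%, lay below all of those at 4 h.

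Over the same times the 60 most abundant genes took 33.4% ± 1.40 of the counts at first (4 h), 65.4% ± 5.55 in the middle of the course (72 h) and 24.4% ± 4.60 at its end (168 h). Of the counts outside these 60 genes, the steady set held 3.75% ± 0.0252 in the libraries of 4 h, 4.39% ± 0.203 in those of 48 h, 4.31% ± 0.185 in those of 72 h and 3.33% ± 0.0416 in those of 168 h. On this scale the libraries of 72 h lay above those of 4 h, and those of 168 h below them. At 120 h the share of all counts was 1.46% in replicate 1, where the 60 genes held 70.0%, against 2.16% and 2.35% in replicates 2 and 3, where they held 33.3% and 31.7%. Without replicate 1 the mean share at 120 h was 2.25% of all counts and 3.35% of the counts outside the 60 genes.

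**Figure D2:**
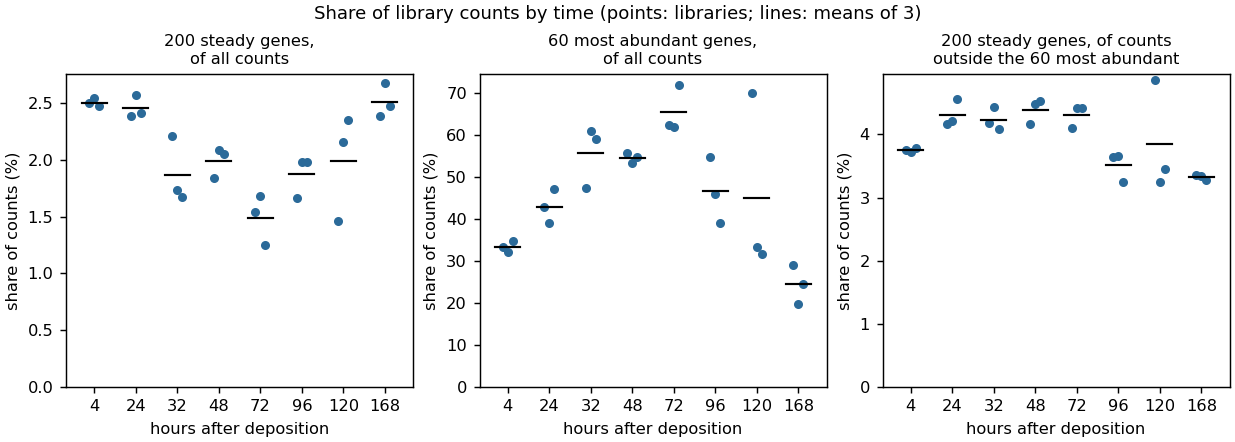
Points are libraries and lines are means of 3, by hours after deposition. The left panel gives the share of all counts held by the 200 steady genes, lowest at 72 h; the middle panel gives the share of the 60 most abundant genes, highest at 72 h; and the right panel gives the steady genes' share of the remaining counts, which is 4.31% at 72 h and 3.33% at 168 h. At 120 h one library, replicate 1, lies far from the other 2 in each panel, and the mean lines include it.

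How steady the set appeared depended on what it was scaled to. The authors' values are per length, whereas the counts scaled below are not. In the authors' table the median steady gene at 168 h stood at 0.948 times its level at 4 h, with 86 genes higher and 114 lower. At 72 h the median ratio was 0.836, with 60 genes higher and 140 lower. The ratios at 168 h ran from 0.516 to 1.85, within the limit of 2 on the time means.

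On counts summed per gene and scaled by TMM across genes, the same 200 genes had a median log2 fold change of -0.47 at 168 h against 4 h. All 15587 genes tested had a median of 0.57. On this scale 81 of the 200 genes were called lower and 0 higher (quasi-likelihood test in edgeR, p under 0.05 after Benjamini-Hochberg adjustment), beside 25.5% of all genes tested called lower and 31.9% called higher. The called genes had a median log2 fold change of -0.81. The count of 0 is bound to this scaling. With DESeq2 size factors 6 were called higher and 48 lower, beside 35.3% and 23.6% of all genes tested. With library totals alone these were 17 and 13, beside 37.4% and 20.4%. With limma on log2(value + 1) of the authors' values they were 13 and 18, beside 36.6% and 15.1%. DESeq2's own test called 8 higher and 67 lower, beside 35.7% and 21.6%, and limma voom 1 and 100, beside 38.5% and 28.3%. At an unadjusted p under 0.05 the edgeR test had 1 gene above 0 and 95 below, beside 62.9% of all genes tested in either direction. Without 168h replicate 2 the test called 45 genes, all lower, beside 13.5% of all genes called lower, and without 168h replicate 3 it called 49, all lower, beside 13.4%.

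The steadiest genes show how a single level moves with the scaling and, in the authors' table, with values taken per length. TRINITY_DN235313_c9_g1 had a log2 fold change at 168 h against 4 h of -0.46 with TMM on gene counts, -0.24 with DESeq2 size factors, -0.03 in the authors' table and 0.03 with library totals. TRINITY_DN239854_c0_g4 had -0.50, -0.28, -0.15 and -0.01 on the same scales. The standard errors with TMM were 0.189 and 0.205. These are descriptions, since the same libraries ranked the genes.

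At 72 h against 4 h the direction of the calls turned with the scaling. With TMM on gene counts 15 of the 200 genes were called, beside 11.4% of all genes tested. Of these, 2 were higher and 13 lower, beside 5.29% and 6.10%, and the median log2 fold change was -0.20. With DESeq2 size factors 14 were called higher and 3 lower, beside 7.08% and 4.48%, with a median of 0.01. Limma on the authors' values called 1 higher and 14 lower, beside 3.24% and 6.80%. With library totals alone 0 were called higher and 102 lower, with a median of -0.77, beside 3.36% and 13.5%. One fit served all 24 libraries, and those of other times also moved the count: leaving out 120h replicate 1 gave 2 called higher and 38 lower with TMM, beside 6.23% and 8.70% of all genes tested. Leaving out 32h replicate 2 gave 24 in all, beside 12.0%. The count was 3 when 4h replicate 1 was left out, beside 4.87%, and 9 when 4h replicate 3 was, beside 5.60%. It was 2 for 72h replicate 1, beside 4.72%, and 7 for 72h replicate 2, beside 6.10%.

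In the test across the 8 times, 96 of the 200 were called, 48.0%, beside 63.9% of all genes tested and 84.3% of the expressed genes, and the rule itself favours a low share. The count was 122 without 120h replicate 1, beside 62.4% of all genes. It was 55 without 4h replicate 3, beside 54.1%, and 63 without 24h replicate 2, beside 55.6%. For 168h replicates 2 and 3 it was 56 and 55, beside 50.0% and 50.1%.

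The set could also serve as the scale. When the libraries were scaled so that the median steady gene was level, the median log2 fold change of all genes tested at 168 h against 4 h was 1.04, and 6005 genes were called higher and 3323 lower, 38.5% and 21.3%. With TMM on gene counts the same table gave 4973 and 3980. Of the steady genes, 22 were called higher and 21 lower on the scale set by themselves. At 72 h against 4 h the same scaling gave 1052 genes higher and 701 lower, 6.75% and 4.50%, where TMM gave 825 and 951, and of the steady genes 13 and 3 were called. The scaling by the set was added after the data were seen, and it rests on genes chosen to be level in the authors' table.

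**Figure D3:**
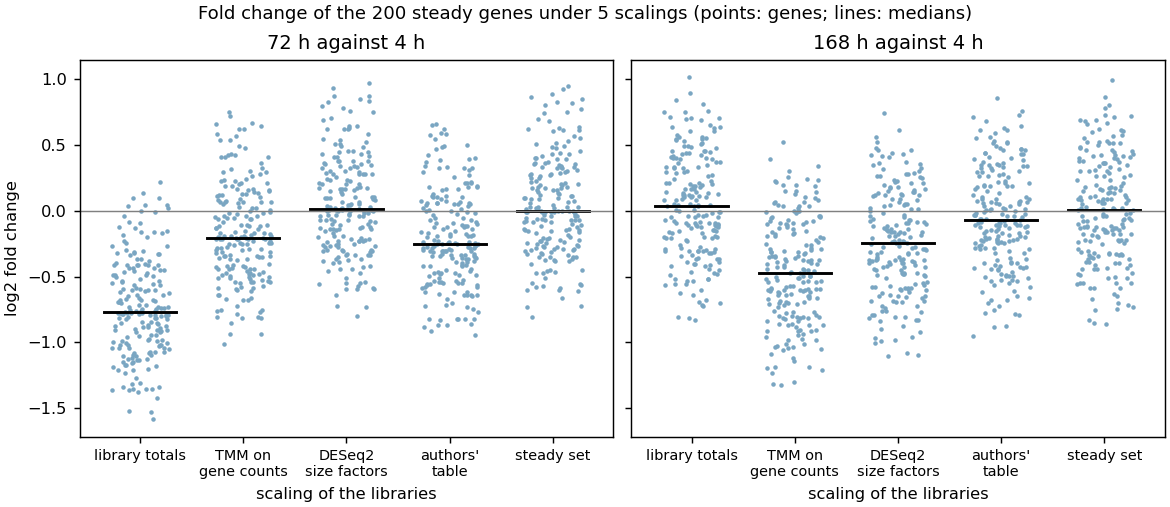
Each point is one of the 200 steady genes and each line a median. The vertical axis is the log2 fold change at 72 h (left) or 168 h (right) against 4 h under 5 settings. The authors' values are per length, while the other settings scale counts summed per gene. At 168 h the median is -0.47 with TMM on gene counts and -0.07 in the authors' table, and at 72 h it is -0.77 with library totals and 0.01 with DESeq2 size factors.

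Isoform usage was not part of the rule, since only the sum over isoforms was held level. Alternative isoforms come from alternative splicing or from alternative starts and ends of transcription, and an assembler can also split alleles or unspliced RNA into isoforms. Of the 200 genes, 185 had 2 or more isoforms, 92.5%, against 84.9% of the other expressed genes and 50.7% of all assembler genes. The steady genes had a median of 5 isoforms, and the other expressed genes 4. The isoform of highest mean share held a median of 63.3% of its gene in the 185 steady genes and 74.5% in the 2043 other expressed genes with several isoforms. One isoform was the main one at all 8 times in 98 of the 185 steady genes, 53.0%, against 68.1% in the others.

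Isoform shares were compared by the share of a gene's value that would have to pass between isoforms to turn one library's profile into another's. Between 168 h and 4 h this distance had a median over the 185 genes of 20.2 percentage points, and within these times it was 15.7. In the other expressed genes these medians were 13.8 and 10.9. The distance between times exceeded that within times in 113 of the 185 genes, beside 1463 of the 2228 expressed genes with several isoforms. In 15 genes, 8.11%, each distance between the times was larger than each distance within them, beside 6.60% of the 2228 expressed genes with several isoforms. Between 72 h and 4 h the distances were 26.9 between and 23.1 within, against 18.1 and 14.6 in the other expressed genes. In this comparison 2 genes stood apart in this way, 1.08%, beside 3.05%. In most of the set, as in most of the expressed genes, the distances between times were thus not all larger than those within them. This measure is strict, and a gene that fails it can still differ in isoform shares.

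The test of isoform usage was run over all genes with several isoforms. On simulated data this test made more false calls than its threshold allows, so its adjusted p-values here may be too small. At 168 h against 4 h, 9 of the 177 steady genes tested were called, 5.08% (edgeR diffSpliceDGE, gene-level F test, adjusted p under 0.05), beside 3.64% of all 6396 genes tested and 5.50% of the 2090 expressed genes tested. At 72 h against 4 h, 4 were called, 2.26%, beside 1.31% of all genes and 2.30% of the expressed genes, and 2 were called at both times. The shares of the set thus lay near those of the expressed genes. The calls at 168 h depended on single libraries, in the set and over all genes tested. When 4h replicate 1, 2 or 3 was left out, 2, 0 and 3 steady genes were called. Over all genes tested these were 75 of 7314, 36 of 7209 and 67 of 7288. In the fit that gave 0, 32 steady genes had an unadjusted p under 0.05, beside 1065 of the 7209. Leaving out 168h replicate 1, 2 or 3 gave 5, 3 and 4, beside 125 of 7214, 91 of 7115 and 73 of 7127. Leaving out 24h replicate 2 or 96h replicate 2 gave 5 each, beside 214 of 7338 and 198 of 7273. At 72 h the count was 2, 0 and 1 when 4h replicate 1, 2 or 3 was left out. Over all genes tested it was 24 of 7314, 12 of 7209 and 19 of 7288. In the fit that gave 0, 38 steady genes had an unadjusted p under 0.05, beside 1007 of the 7209. The count of steady genes was 1, 2 and 2 for 72h replicates 1, 2 and 3, beside 31 of 7286, 27 of 7280 and 39 of 7335. It was 2 for each library of 96 h and of 168 h, for 24h replicates 1 and 3 and for 48h replicate 1. In these last fits 51 to 81 of 7115 to 7325 genes tested were called. Limma voom called 23 of the 177 genes at 72 h, beside 8.82% of all genes tested and 302 of the 2090 expressed genes tested. At 168 h with limma voom 44 of the 177 were called, 24.9%, beside 23.3% of all genes tested and 536 of the 2090. The Simes form of the edgeR test called 1, beside 15 of the 6396.

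**Figure D4:**
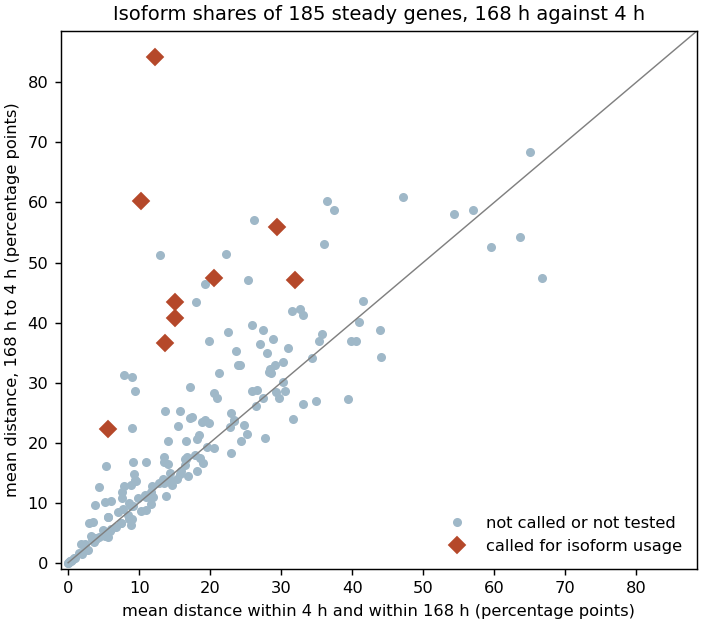
Each point is one of the 185 steady genes with 2 or more isoforms. The horizontal axis is the mean distance in isoform shares between libraries of the same time (4 h or 168 h) and the vertical axis that between libraries of 168 h and 4 h, both in percentage points; the line marks equality. The 9 called genes, drawn as diamonds, lie above the line, and 113 of the 185 genes do, beside 1463 of the 2228 expressed genes with several isoforms.

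The mean profiles of the 9 called genes at 168 h and 4 h lay 21.9 to 83.9 percentage points apart, with a median of 43.4. Their summed values at 168 h were 0.879 to 1.85 times those at 4 h, with a median of 1.06, within the limit of the rule. In 4 of them the main isoform at 168 h was another one than at 4 h. In 6 of them every distance between the times exceeded every distance within.

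TRINITY_DN238890_c0_g1 had the smallest p of the set in the edgeR test at 168 h and exchanged one isoform for another. Its summed value was 172.3, 168.7 and 169.8 at 168 h, against 222.8, 176.2 and 178.5 at 4 h. Its log2 fold change was -0.17 in the authors' table, -0.60 with TMM on gene counts, -0.38 with DESeq2 size factors and -0.09 with library totals. Isoform TRINITY_DN238890_c0_g1_i6 held 70.2%, 84.0% and 76.1% of the gene at 168 h, against 4.59%, 2.97% and 2.62% at 4 h. Isoform TRINITY_DN238890_c0_g1_i15 held 16.5%, 4.11% and 9.33% at 168 h, against 87.6%, 75.0% and 86.5% at 4 h. Neither isoform overlapped between the times, and usage passed the threshold in a test that was too permissive on simulated data (edgeR diffSpliceDGE, F = 8.00, adjusted p = 0.00399). With the Simes form the adjusted p was 0.171, and without 4h replicate 2 it was 0.0815.

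The exchange in this gene could be followed through the week. Isoform TRINITY_DN238890_c0_g1_i6 held 3.39% ± 1.05 in the libraries of 4 h, 10.6% ± 3.42 in those of 24 h, 0.756% ± 1.31 in those of 32 h and 6.06% ± 2.05 in those of 48 h (SD, n = 3, here and in the next sentence). It held 22.3% ± 9.08 at 72 h, with 28.5%, 26.5% and 11.9% in the libraries, and 66.4% ± 6.77 at 96 h. At 120 h it was listed at 0 in replicate 1 and held 75.1% and 71.1% in replicates 2 and 3. Isoform TRINITY_DN238890_c0_g1_i15 held 81.4% in 120h replicate 1 and 18.1% and 15.0% in the other libraries of 120 h. In this gene 120h replicate 1 had shares in the range of the libraries of 4 to 48 h. The values of 72 h lay between those of 48 h and 96 h for both isoforms, with no overlap on either side.

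TRINITY_DN241968_c1_g1 gained an isoform that was listed at 0 in the libraries of 4 h. Its summed value was 43.9, 46.6 and 43.0 at 168 h, against 44.5, 48.3 and 56.0 at 4 h. How level the sum was depended on the measure. Its log2 fold change was -0.15 in the authors' table, whose values are per length. On counts summed per gene it was -0.94 with TMM, -0.72 with DESeq2 size factors and -0.44 with library totals. Isoform TRINITY_DN241968_c1_g1_i5 held 33.7%, 38.2% and 31.1% of the gene at 168 h, and was listed at 0 in each library of 4 h. Isoform TRINITY_DN241968_c1_g1_i12 held 23.9%, 21.5% and 11.2% at 168 h, against 67.5%, 71.9% and 66.9% at 4 h. At 168 h the first isoform had a mean of 144 counts and the second 210, although the first held the larger share of the value. The part of isoform length in the fold changes was not tested. Usage passed the threshold of the same test (edgeR diffSpliceDGE, F = 6.84, adjusted p = 0.00421), but the adjusted p was 0.0632, 0.0815 and 0.0689 when 4h replicate 1, 2 or 3 was left out, and 0.167 with the Simes form. Between these times the shares varied from library to library: the first of these isoforms held 15.7%, 28.8% and 37.3% at 96 h, and at 120 h it was listed at 0 in replicate 1 and held 37.6% and 30.6% in replicates 2 and 3.

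**Figure D5:**
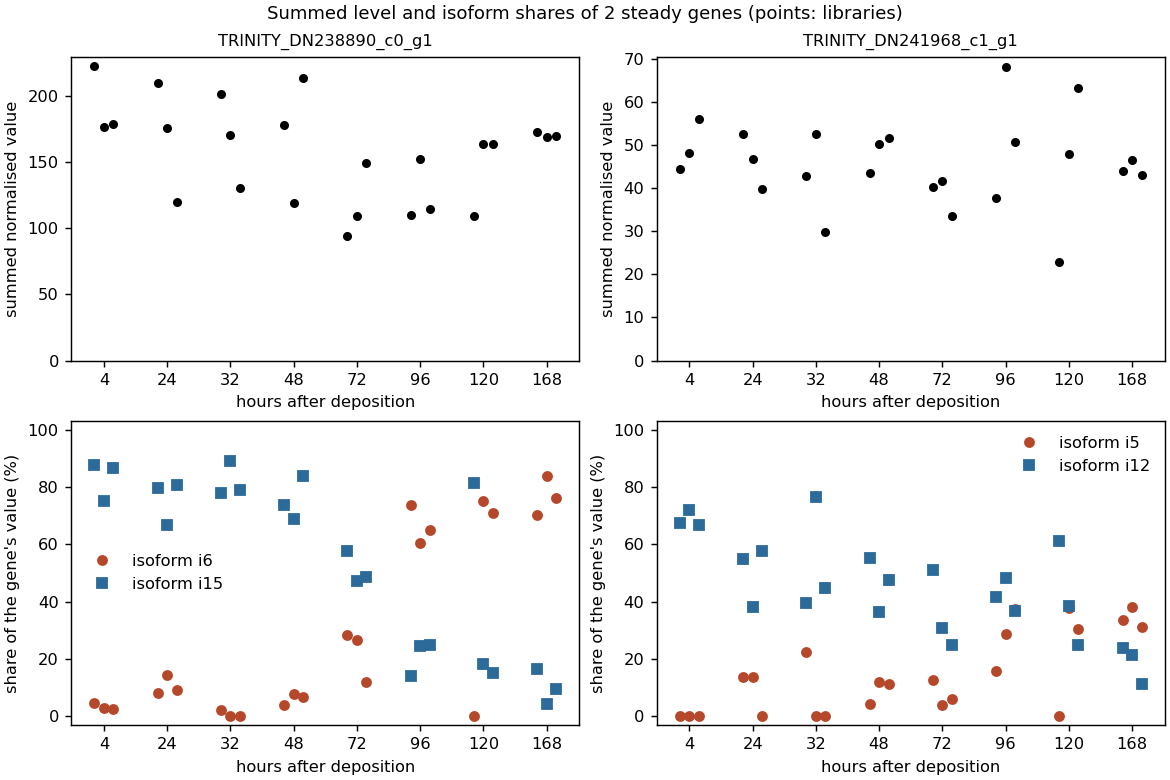
Points are libraries by hours after deposition, in 2 steady genes. The upper panels give the gene's summed normalised value and the lower panels the share of it held by the isoform that gained most and the one that lost most at 168 h against 4 h. In TRINITY_DN238890_c0_g1 the isoforms exchange places between 72 h and 96 h, and the 120 h library that sits with the early times is replicate 1.

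Over the 185 genes the isoform profiles of the libraries were also compared with the means of 168 h and 4 h, a library being left out of the mean of its own time. In the libraries of 168 h, 112, 126 and 110 genes were nearer to 168 h, and 70, 57 and 72 were nearer to 4 h. In the libraries of 4 h, 82, 59 and 73 genes were nearer to 168 h, and 101, 124 and 109 were nearer to 4 h. In 96h replicates 1, 2 and 3 the genes nearer to 168 h numbered 106, 98 and 115. In 120h replicates 1, 2 and 3 they numbered 71, 130 and 102. Thus 120h replicate 1 had a count in the range of the 4 h libraries, outside that of the other libraries of 96 h, 120 h and 168 h. That range was not particular to 4 h: 24h replicates 2 and 3 had 80 and 70, 48h replicate 2 had 81 and 72h replicate 2 had 74. The library 120h replicate 1 held 1758238 counts, and 96h replicate 1 held 1599902. The part of depth in these counts was not tested.

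The structure of the steady genes, which the rule did not use, is given here as a description without a test. Their length, taken from the ratio of count to value and given relative to the median gene of the assembly, had a median of 1.76, against 1.28 in the other expressed genes. The quartiles were 1.33 and 2.51, against 0.952 and 1.79. Genes with 10 or more isoforms made up 17.0% of the set and 12.9% of the others. Longer genes collect more reads at a given value, and the part of length in the low spread was not tested. Counts were whole numbers, within 0.02, in all 24 libraries for 178 of the 200 genes, 89.0%, against 92.8% of the other expressed genes. Counts that are not whole arise where reads are divided between genes, so the level of the remaining genes is uncertain, above all of 6 whose count was whole in the smaller part of the libraries. A gene alone in its component was found in 64.5% of the set and 67.6% of the others.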

How the data were processed

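Stranded polyA libraries of whole cocoons were read from both ends, 100 bp each, according to the protocols in the labels. Trimmomatic 0.32, FastQC 0.11.2, RSEM, R 4.2.2, edgeR 3.40.2 and limma 3.54.2 are named in the submitters' processing notes. Which aligner was used is not given in the sources used here, and the same holds for any genome build. Estimated counts of 60921 transcripts, not normalised, are in the first deposited table, per the file headers. The second deposited table holds signal normalised by TMM, with no unit stated, per the file headers.

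Library totals ran from 1599902 to 9567933 counts, with a median of 3304781. The labels give 3 biological replicates per time. The steady genes were chosen on the normalised table. Members and lists were chosen with earlier results of these data known.

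Estimated counts were rounded, filtered with filterByExpr and fitted over all 24 libraries with time as the factor, in edgeR 4.0.16 and R 4.3.3. The quasi-likelihood test was run on counts per gene, and diffSpliceDGE with its gene-level F test on isoforms. P-values were adjusted over all genes tested. Standard errors were derived from the fold change and its F statistic. Tests were checked on simulated data, where the F test of isoform usage gave more false calls than its nominal level. DESeq2 1.42.0 and limma 3.58.1 served as alternatives, beside other scalings, filters, thresholds, a replicate block and leaving out each library. Tables and figures used Python 3.11.15, numpy 2.4.6, pandas 2.3.3 and matplotlib 3.10.9.

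Named by ID are the 2 genes of lowest coefficient of variation, the 2 of highest mean value, and the 2 of smallest p among those called for isoform usage at 168 h, each with the isoform that gained most and the one that lost most.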

Additional observations from a re-analysis of the deposited data

How the results depend on the processing

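The choice of the 200 genes depended on the measure. Alternatives on counts differ from the authors' values in scaling and also in not being divided by length. The rule chose 99 of them again on CPM, 89 on counts scaled by edgeR TMM and 126 with DESeq2 size factors, and the median coefficient of variation of the genes chosen was 25.7% and 20.3% on the first and last of these scales. Leaving out each library kept 170 to 191 of the genes, with a median of 21.8% to 23.2%. The share held at 72 h was 4.31% of the counts outside the 60 most abundant genes and 0.796% of the authors' values, and 1.40% to 1.61% without single 72 h libraries.

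Isoform usage calls at 168 h were 3 at an adjusted p under 0.01, 1 with the Simes form and 44 with limma voom. Over all 6396 genes tested these were 56, 15 and 1488. With the 6 libraries alone 17 of 167 were called, beside 724 of 4931. Without single libraries the calls were 0 to 10, beside 36 to 304 of 7115 to 7347. Those at 72 h were 2 at 0.01, 1 with the Simes form and 23 with limma voom, beside 21, 22 and 564 of the 6396. They were 2 without a filter, beside 45 of 11293. Without single libraries they were 0 to 6, beside 12 to 116 of 7115 to 7347. Gene-level calls over all times were 46 at 0.01 and 52 with the steady scaling, beside 6911 and 10089 of the 15587 genes tested. They were 35 and 33 with limma on the authors' table (pseudocounts 1 and 0.1), beside 9180 and 8610. Without single libraries they were 55 to 122, beside 8579 to 11330 of 16901 to 17523. At 72 h they were 2 at 0.01, 102 with library totals and 29 with DESeq2, beside 675, 2621 and 3238 of the 15587. Without single libraries they were 2 to 40, beside 815 to 2613 of 16901 to 17523. At 168 h they were 43 at 0.01, 43 with the steady scaling and 30 with library totals, beside 5668, 9328 and 9006 of the 15587. With limma they were 31 and 27, beside 8063 and 7701. Without single libraries they were 45 to 85, beside 6596 to 9816 of 16901 to 17523. Chosen after seeing the data were the scaling by the steady set, that by library totals, and the 120 h values without replicate 1. Leaving out a library lowers the smallest group, so the filter passes more genes.

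Replicate numbers gave no clear pairing of the samples. Deviations of same-numbered libraries correlated at -0.367, 0.508 and 0.0959 between 72 h and 4 h. Between 168 h and 4 h they correlated at 0.0447, 0.0202 and 0.0259. Those of differently numbered libraries ran from -0.581 to 0.511 at 72 h and from -0.101 to 0.0733 at 168 h. Deviations within a time depend on each other, so these values cannot exclude a pairing. With the replicate block the calls of isoform usage were 2 at 72 h and 7 at 168 h, beside 52 and 170 of 6396 genes tested. Those at gene level were 9 at 72 h, 71 at 168 h and 82 over all times, beside 1549, 8303 and 8888 of 15587.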
